A study of Rattus norvegicus with 4 samples.

Results

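Nr4a1, Nr4a3 and Egr1 encode transcription factors whose genes are switched on within minutes when a neuron is depolarized. Their transcripts were followed here through 10 of the 1322 probe sets of an Affymetrix neurobiology array. The members are every probe set to which the platform annotation gives one of these 3 symbols, which were 2 for Nr4a1, 3 for Nr4a3 and 4 for Egr1, and the probe set U75397UTR#1_s_at. That last probe set was taken in by its identifier as a Krox-24 sequence. RefSeq lists Krox-24 as an older name of Egr1, but the platform annotation used here does not list this probe set, so it is given under its identifier and is not counted with Egr1.

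Cortical neurons were taken from rat embryos at day 17 and grown for 14 days in Neurobasal medium with the B27 supplement. One group, the control, received phosphate-buffered saline for 4 h and the other received 25 mM KCl for 4 h. Each group had 2 arrays, numbered 1 and 2 in their titles, and these titles and the treatment protocols set the groups, since the description label words all 4 samples as non-activated. It is not stated that the 2 arrays of a group stem from different cultures. The p-values therefore describe the spread between arrays, which may be technical. Strain and sex are not given in the labels.

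NR4A1, also called Nur77 or NGFI-B, and NR4A3, also called NOR-1, are nuclear receptors without a known natural hormone ligand, and their activity is set mainly by how much of each protein is made. EGR1, also called zif268, NGFI-A or Krox-24, is a zinc-finger protein that binds GC-rich DNA and is held in check by the NAB corepressors. In neurons, calcium entry through L-type channels and NMDA receptors acts on all 3 genes through the kinases that phosphorylate CREB and the partners of serum response factor (SRF). CREB binds the cAMP response element, whose core is CGTCA, and SRF binds the CArG box, a stretch of A and T between CC and GG.

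RefSeq's promoter table (build GRCr8, 250 bases before to 50 after the annotated start) holds Nr4a1 and Egr1 among the 3 genes. The stretches of these windows that carry CGTCA cores or CArG boxes are shown because the transcripts of both genes rose after KCl, with the matched motifs in capitals. The Nr4a1 stretch lies at chr7:134259888-134260093 and the Egr1 stretch at chr18:26736939-26737020, both on the plus strand and both written 5′ to 3′.
Nr4a1: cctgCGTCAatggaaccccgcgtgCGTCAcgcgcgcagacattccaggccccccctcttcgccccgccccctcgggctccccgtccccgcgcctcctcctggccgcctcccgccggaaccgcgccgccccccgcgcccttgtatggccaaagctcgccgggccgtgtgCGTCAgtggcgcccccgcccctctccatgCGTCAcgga
Egr1: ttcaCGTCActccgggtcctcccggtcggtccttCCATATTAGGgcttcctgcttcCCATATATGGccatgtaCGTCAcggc

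Both windows carried CGTCA, and only the Egr1 window carried the CArG box as searched, with A and T alone between CC and GG. Near matches to the CArG box were not searched. The Nr4a1 window held 4 CGTCA cores, starting 246, 226, 82 and 53 bases before the start, and no CArG box by this pattern. In the Egr1 window there were 2 CGTCA cores, 135 and 66 bases before the start, with 2 CArG boxes between them, at 105 and 83 bases. Searched on both strands of 33469 promoters of the same length, CGTCA was present in 21.2% and the CArG box in 1.64%. As many as 4 CGTCA places were found in 0.236% of promoters, as many as 2 in 4.96%, and as many as 2 CArG boxes in 0.0209% (7 promoters). The full palindrome TGACGTCA, which contains the core on both strands, was in neither window and in 1.83% of promoters. An EGR site, searched as GCGNGGGCG, matched once in the Nr4a1 window on the minus strand and was present in 4.98% of promoters. The NR4A site AAAGGTCA was in neither window and in 1.43% of promoters. These are matches of letters, not sites shown to be bound. GC content was 72.3% in the Nr4a1 window and 64.7% in the Egr1 window, and the Nr4a1 start used by the table lies inside the annotated span of the gene rather than at its outer end.

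All 10 probe sets read higher on both KCl arrays than on both control arrays. Of the 9 that were bright enough to be tested, 8 rose at an adjusted p below 0.05 in limma, a linear model that shares variance estimates across probe sets, and none fell. Over the whole array 5.49% of the 947 tested probe sets rose by the same rule, and in 21.4% both KCl arrays lay above both control arrays. The rises differed in size: Nr4a1 rose 7.06 and 9.90-fold on its 2 probe sets, Nr4a3 2.14 to 2.94-fold and the Egr1 probe sets that passed 1.72 to 1.79-fold. Values are probe set intensities in arbitrary units on a linear scale, errors of means are the SD of 2 arrays, and errors of log2 changes are limma's standard errors (SE).

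**Figure D1:**
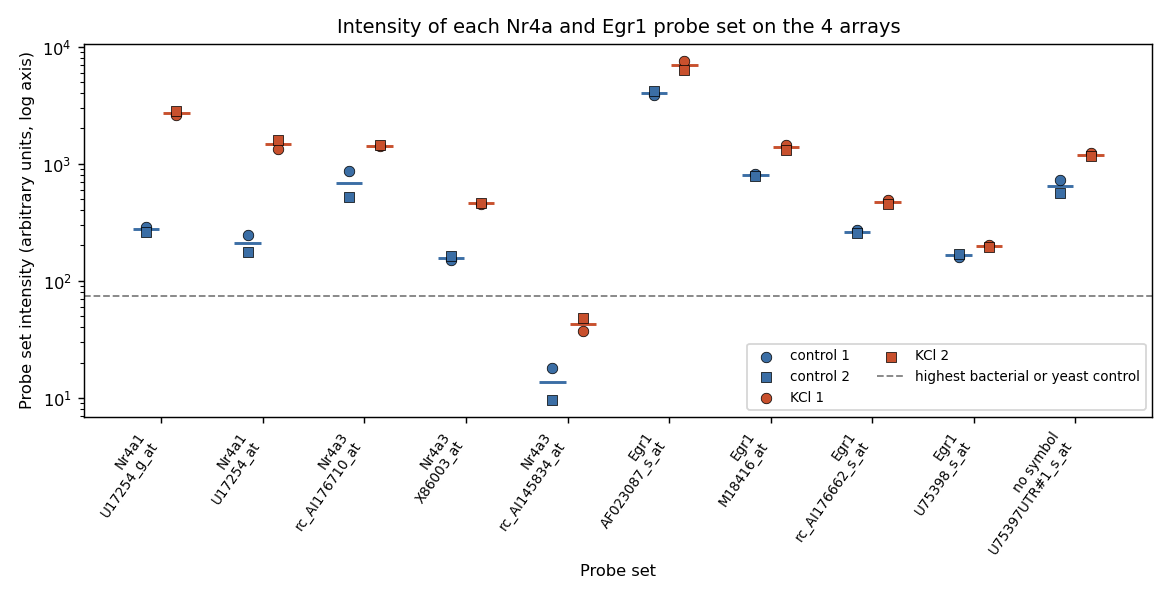
Probe set intensity (arbitrary units, log axis) of the 10 probe sets on the 4 arrays, with circles for replicate 1, squares for replicate 2 and bars for group means. The dashed line is the highest value of the bacterial and yeast control probe sets, 73.7, and the 1 probe set below it on all arrays is rc_AI145834_at of Nr4a3.

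Nr4a1 had 2 probe sets, U17254_g_at and U17254_at, both designed from the sequence U17254. U17254_g_at read 287.9 and 260.0 on control 1 and control 2, and 2608.7 and 2811.9 on KCl 1 and KCl 2. Its lowest KCl value was thus 9.06 times its highest control value, and its group means were 274 ± 20 and 2710 ± 144. The rise was 9.90-fold, a log2 change of 3.31 ± 0.13 (limma adjusted p = 4.9e-07), which ranked 4 among the 947 log2 changes, behind the 3 probe sets of Fos, the AP-1 subunit. U17254_at read 243.7, 176.1, 1340.8 and 1594.8 in the same order. The groups of this probe set were again far apart, with 5.50 times between the lowest KCl and the highest control value, and its rise of 7.06-fold (log2 change 2.82 ± 0.18; limma adjusted p = 2.7e-05) ranked 7.

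The pair of Nr4a1 probe sets did not give the same fold. On each array the log2 ratio of U17254_g_at to U17254_at was 0.24 and 0.56 in the controls and 0.96 and 0.82 after KCl, so the groups did not overlap. The log2 changes differed by 0.49, which is a fold 1.40 times larger on U17254_g_at. An exact two-sided permutation test of 2 against 2 arrays gave p = 0.33, the smallest it can give, and p = 0.56 after adjustment over the 10 such pairs compared among these probe sets. Both probe sets kept their call when either control array was left out, with U17254_at at a log2 change of 3.05 without control 1 (limma adjusted p = 0.016) and 2.59 without control 2 (limma adjusted p = 0.032).

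Nr4a3 was read by 3 probe sets, and its rise was smaller than that of Nr4a1. X86003_at read 148.9 and 164.1 in the controls and 454.7 and 463.3 after KCl. Replicates of this probe set lay close together, with means of 157 ± 11 and 459 ± 6, and it rose 2.94-fold (log2 change 1.55 ± 0.17; limma adjusted p = 0.00067). The brightest probe set, rc_AI176710_at, read 860.5 and 517.0 in the controls and 1402.1 and 1454.2 after KCl. Its control arrays were unlike each other, at a ratio of 1.66, while its KCl arrays stood at a ratio of 0.96. It rose 2.14-fold (log2 change 1.10 ± 0.21; limma adjusted p = 0.013). The third, rc_AI145834_at, read 17.8, 9.6, 37.5 and 47.7, all within the range of the bacterial and yeast control probe sets (up to 73.7), and was left out of the test as one of the dimmest 25%. Its groups did not overlap, and its log2 change of 1.69 rests on those background values.

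The calls for Nr4a3 changed when a control array was left out. The log2 change of rc_AI176710_at was 1.47 without control 1 (limma adjusted p = 0.044) and 0.73 without control 2 (limma adjusted p = 0.16). For X86003_at the log2 change was 1.48 without control 1 and 1.62 without control 2, and the limma adjusted p was 0.070 in each case. In these fits only the KCl pair informs the residual spread, and limma's prior degrees of freedom, the weight it gives to the variance shared across probe sets, were 2.57 and 2.56 in place of 6.34. The whole array then had 13 and 10 rises in place of 52. With a KCl array left out the prior degrees of freedom were infinite, so each probe set took the shared variance, and a call kept in those fits says little about stability. The difference in log2 change between rc_AI176710_at and X86003_at was −0.46. Per array their log2 ratio was 2.53 and 1.66 in the controls and 1.62 and 1.65 after KCl, so that control 1 stood apart from the other 3 arrays (exact permutation p = 0.33, adjusted 0.56).

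Egr1, the zinc-finger gene, gave a smaller fold than Nr4a1 on each of its probe sets. AF023087_s_at, its brightest probe set, read 3842.9 and 4173.7 in the controls and 7536.3 and 6308.7 after KCl. The lowest KCl value was 1.51 times the highest control value, and the rise was 1.72-fold (log2 change 0.78 ± 0.12; limma adjusted p = 0.0042). Its control mean was 54.4 times the highest bacterial or yeast control value. On KCl 1 and KCl 2, 22 and 29 other probe sets were brighter, and the brightest value on those arrays was 22028.5 and 21353.0. Whether the probes of AF023087_s_at still respond in proportion to the transcript at these intensities was not tested.

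Of the other Egr1 probe sets, M18416_at and rc_AI176662_s_at rose by nearly the same factor. M18416_at read 816.2 and 778.0 in the controls and 1441.4 and 1317.1 after KCl, a 1.73-fold rise (log2 change 0.79 ± 0.12; limma adjusted p = 0.0042). rc_AI176662_s_at read 269.1 and 253.7, then 486.3 and 447.8, a 1.79-fold rise (log2 change 0.84 ± 0.15; limma adjusted p = 0.011). The log2 change of AF023087_s_at minus theirs was −0.0062 and −0.053, and the per-array ratios overlapped between the groups (exact permutation p = 1.00 for M18416_at and 0.67 for rc_AI176662_s_at). The 3 probe sets thus gave like folds from control means of 4008, 797 and 261. Intensities of different probe sets depend on their probes as well as on the transcript, so these means do not rank amounts of RNA.

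U75398_s_at, the fourth Egr1 probe set, did not pass. It read 161.0 and 169.6 in the controls and 203.5 and 193.6 after KCl, so the groups were apart but by a factor of 1.14 between the nearest values (log2 change 0.26 ± 0.20; limma adjusted p = 0.45). Its log2 change was 0.52 below that of AF023087_s_at. The log2 ratio of AF023087_s_at to it was 4.58 and 4.62 in the controls and 5.21 and 5.03 after KCl, without overlap (exact permutation p = 0.33, adjusted 0.56). Its control mean of 165 ± 6 was 2.24 times the highest bacterial or yeast control value. This factor was 3.55 for rc_AI176662_s_at and 2.12 for X86003_at of Nr4a3, which passed with rises of 1.79 and 2.94-fold. The part of low intensity in the missing call of U75398_s_at was not tested.

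The symbol-less U75397UTR#1_s_at gave a fold near those of the 3 Egr1 probe sets that passed. It read 728.2 and 565.8 in the controls and 1231.9 and 1157.4 after KCl, with no overlap. The rise was 1.86-fold (log2 change 0.90 ± 0.15; limma adjusted p = 0.0069). The log2 change of AF023087_s_at minus that of this probe set was −0.11, and the per-array ratios overlapped (exact permutation p = 1.00).

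The calls for Egr1 were lost when either control array was left out. Without control 1 the limma adjusted p was 0.16 for AF023087_s_at, 0.13 for M18416_at, 0.16 for rc_AI176662_s_at and 0.083 for U75397UTR#1_s_at, and without control 2 it was 0.16, 0.18, 0.20 and 0.18. In these fits the log2 changes of the Egr1 probe sets that passed with all arrays stayed between 0.72 and 0.88. That of U75397UTR#1_s_at was 1.08 without control 1 and 0.71 without control 2. Both fits had the lower prior degrees of freedom given above for Nr4a3.

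**Figure D2:**
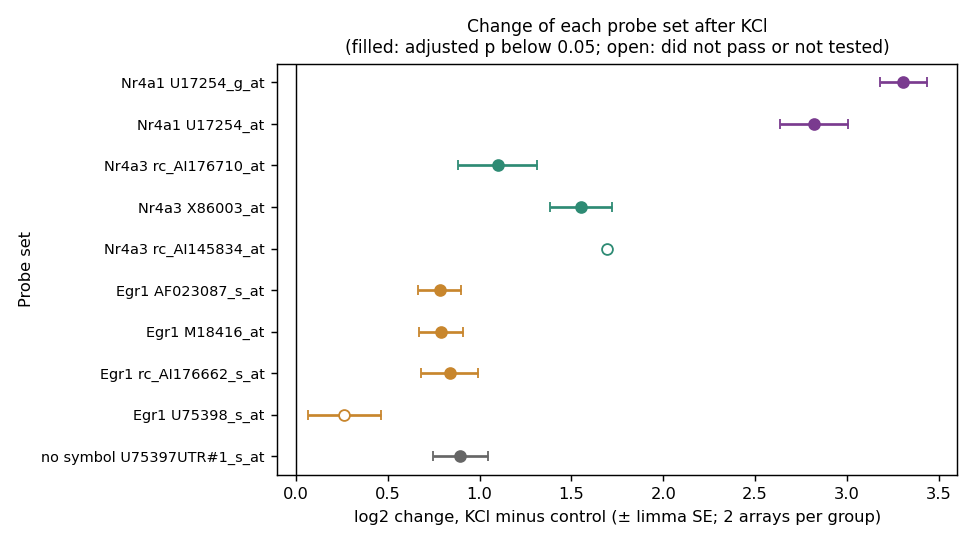
Log2 change of each probe set (KCl minus control, 2 arrays per group) with bars of 1 limma SE; filled points have an adjusted p below 0.05. Nr4a1 lies at 2.82 and 3.31, the tested Nr4a3 probe sets at 1.10 and 1.55, and U75398_s_at of Egr1 is the open point at 0.26, while the open Nr4a3 point without a bar was not tested.

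Between genes, the brightest probe set of each was set against the others within every array. The log2 ratio of Nr4a1 to Egr1 was −3.739 and −4.005 in the controls and −1.531 and −1.166 after KCl, so Nr4a1 rose 5.75 times more in fold. The log2 ratio of Nr4a1 to Nr4a3 went from −1.58 and −0.99 to 0.90 and 0.95, a 4.62 times larger fold for Nr4a1. Neither comparison overlapped between the groups, and each had p = 0.33 by the exact permutation test (adjusted 0.56), as small as 4 arrays allow. Nr4a3 and Egr1 differed by 0.31 in log2 change, and there the per-array ratios overlapped (exact permutation p = 0.67). With X86003_at for Nr4a3, a pair added after the values were seen, the difference was 0.77 and the log2 ratios, −4.69 and −4.67 in the controls and −4.05 and −3.77 after KCl, did not overlap. With the tested probe sets of each gene averaged in log2, the changes were 3.06 ± 0.14 for Nr4a1, 1.33 ± 0.14 for Nr4a3 and 0.67 ± 0.12 for Egr1 (limma over 570 genes; adjusted p = 1.1e-06, 0.00041 and 0.0074). This averaging was added after the values were seen.

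**Figure D3:**
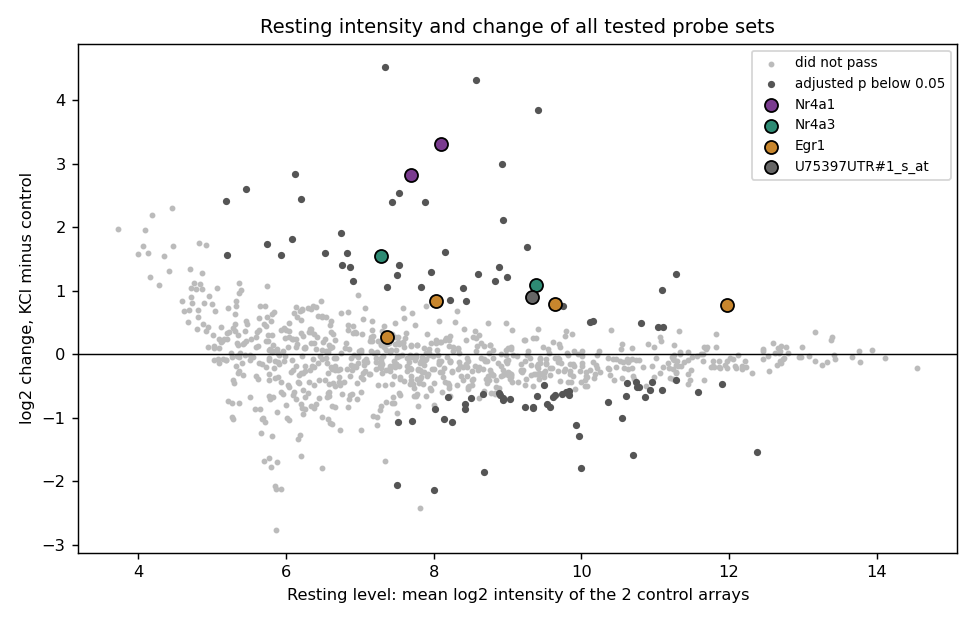
Mean log2 intensity of the 2 control arrays against log2 change for all 947 tested probe sets, with the 9 tested members in colour. The control arrays enter both axes; the Nr4a1 points lie at 2.82 and 3.31, near the top, and the brightest Egr1 probe set lies far to the right at a change of 0.78.

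The replicates of the KCl group ordered these genes in opposite ways. All 5 Nr4a probe sets read higher on KCl 2 than on KCl 1, with ratios of KCl 1 to KCl 2 of 0.93 and 0.84 for Nr4a1 and of 0.96, 0.98 and 0.79 for Nr4a3. The 4 Egr1 probe sets and U75397UTR#1_s_at all read higher on KCl 1, with ratios of 1.05 to 1.19. Over the 947 tested probe sets, 42.0% read higher on KCl 1. Probe sets of a gene share the RNA of an array, so these counts are a description and carry no test.

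The probe sets whose pattern over the 4 arrays was most like each gene were found by the Euclidean distance of log2 intensities taken relative to the control mean. For Nr4a1 (U17254_g_at) the nearest of 851 probe sets were those of Junb, a Jun-family partner in AP-1, at 0.46, Fos at 0.77 and Bdnf, the neurotrophin gene, at 1.10, against a median distance of 4.83. Junb read 496.0 and 478.6 in the controls and 3937.0 and 3825.9 after KCl, a log2 change of 2.99 ± 0.11. For Egr1 (AF023087_s_at) they were Igfbp2, which encodes a binding protein of insulin-like growth factors, at 0.087, the cyclic nucleotide-gated channel gene Cnga1 at 0.11 and Map1b, a microtubule protein gene, at 0.12 (median 1.39). Igfbp2 rose 1.70-fold (limma adjusted p = 0.013; 0.24 without control 1 and 0.23 without control 2), while Cnga1 and Map1b had log2 changes of 0.77 ± 0.36 and 0.83 ± 0.25 and did not pass. For Nr4a3 (rc_AI176710_at) they were Irf1, Gsta1 and Syt8, at 0.12, 0.24 and 0.26 (median 1.84), which share its high reading on control 1. Gsta1, a glutathione transferase gene, rose 2.24-fold (limma adjusted p = 0.014; 0.12 without control 1 and 0.20 without control 2), and Irf1 and Syt8 did not pass, the Irf1 probe set (M34253_at) with all its values within background. The Syt8 value on control 2, 36.9, was also within background.

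Of a list of 12 genes for the Egr and Nr4a families, their NAB corepressors and the RXR partners of NR4A proteins, 3 were tested, the members themselves. Nr4a2, Egr2, Egr3, Egr4, Nab1, Nab2, Rxra and Rxrb had no probe set with their symbol and were not analysed here, and Rxrg was among the dim probe sets. Among 17 other activity-regulated transcription factor genes, all 8 tested rose, beside 5.49% of all 947 probe sets. Their median log2 change was 2.01, against −0.10 over all 947. This list was chosen with earlier results of these data known, so the count is a description. Within that range, by each gene's brightest probe set, Nr4a1 lay between Fos (3.85) and Junb (2.99). Nr4a3 (1.10) lay near Cebpb (1.16 ± 0.14), the gene of a basic leucine zipper factor, and Jund (1.05 ± 0.18). Egr1 (0.78) lay near Jun (0.84 ± 0.18). Other probe sets gave other places: U17254_at of Nr4a1 (2.82) lay below Junb, X86003_at of Nr4a3 (1.55) above Cebpb and Jund, and U75398_s_at of Egr1 (0.26) below Jun. Crem, which encodes relatives of CREB including a repressor, had 2.40 ± 0.13, and Cited2, the gene of a CBP-binding protein, had 1.61 ± 0.16. When either control array was left out, 4 of these 8 genes passed, namely Fos, Junb, Crem and Fosl2.

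Genes of the signalling that reaches these promoters passed about as often as the whole array. Of 17 tested genes for calcium entry, calmodulin, kinases, phosphatases and CREB, 1 rose and 1 fell, beside 52 and 50 of all 947 probe sets, and the median log2 change was −0.21. Dusp5, which encodes a phosphatase of ERK kinases, rose 2.08-fold, and Ptk2b, which encodes a calcium-activated tyrosine kinase, fell 1.57-fold, from 689.5 and 664.5 to 382.0 and 485.7 (limma adjusted p = 0.033). The L-type channel genes Cacna1c and Cacna1d had log2 changes of −0.51 ± 0.21 and −0.67 ± 0.25, and the kinase genes Camk2d and Prkar2b, a regulatory subunit of protein kinase A, had −0.36 ± 0.11 and −0.49 ± 0.18. Neither Dusp5 nor Ptk2b passed without control 1 (limma adjusted p = 0.12 and 0.27) or without control 2 (limma adjusted p = 0.21 and 0.30), and in the fit without KCl 2, which used the shared variance alone, 3 genes of the list fell (Ptk2b, Prkar2b and Cacna1c). Without KCl 1 Ptk2b did not pass either (limma adjusted p = 0.066). Creb1 read 40.0 and 40.2 in the controls and 70.0 and 73.8 after KCl, values at about the highest background value or below it, and did not pass.

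Among genes with known EGR1 or NR4A sites, 1 of 9 tested rose, Bdnf with 5.84-fold, and none fell (median log2 change −0.11). Of all 947 probe sets 52 rose and 50 fell, and a count from 9 genes is too small to set apart from that share. Of the others, the synapsin genes Syn1 and Syn2 had log2 changes of −0.13 ± 0.11 and −0.44 ± 0.15, Dlg4, which encodes PSD-95, had −0.23 ± 0.11, and Th, the tyrosine hydroxylase gene, had −0.11 ± 0.24. Slc6a3, the dopamine transporter gene, had 0.72 ± 0.33 and did not pass. Bdnf kept its call without control 1 (limma adjusted p = 0.016) and without control 2 (limma adjusted p = 0.032). In the fit without KCl 2, which used the shared variance alone, Syn2 fell.

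The arrays had been brought to one scale before deposit, with 2% trimmed means of 502.0 to 502.4, and Pearson's r of the log2 values was 0.97 within each group. Neuron markers were present, with summed intensities of 9 tested genes of 32420.6 and 33720.6 in the controls and 30835.5 and 31445.1 after KCl, of which 1 rose. Astrocyte markers moved with the treatment: 6 of 7 tested rose, beside 52 of all 947 probe sets. Their summed intensity was 5483.9 and 5219.9 in the controls and 12551.0 and 9973.8 after KCl, none of them listed at 0. Without control 1 and without control 2 in turn 0 of these 7 passed in limma (5 and 6 with an unadjusted p below 0.05), and without KCl 1 4 did. The ratio of the 3′ to the 5′ hexokinase control probe sets was 2.25 and 2.00 in the controls and 2.49 and 2.67 after KCl. The part of either in the rises of Nr4a1, Nr4a3 and Egr1 was not tested, and in RNA from whole cultures more cells of a type and more RNA per cell cannot be told apart. None of the 5 oligodendrocyte, 2 microglial and 1 endothelial or fibroblast markers tested passed in limma. Of these, 0, 0 and 1 had an unadjusted p below 0.05 (0.72 in log2 for Vcam1). The oligodendrocyte markers Mbp, Pdgfra and Mog and both microglial markers, Ccl2 and Itgam, read within background on all arrays. Their missing calls therefore say little about those cells.

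**Figure D4:**
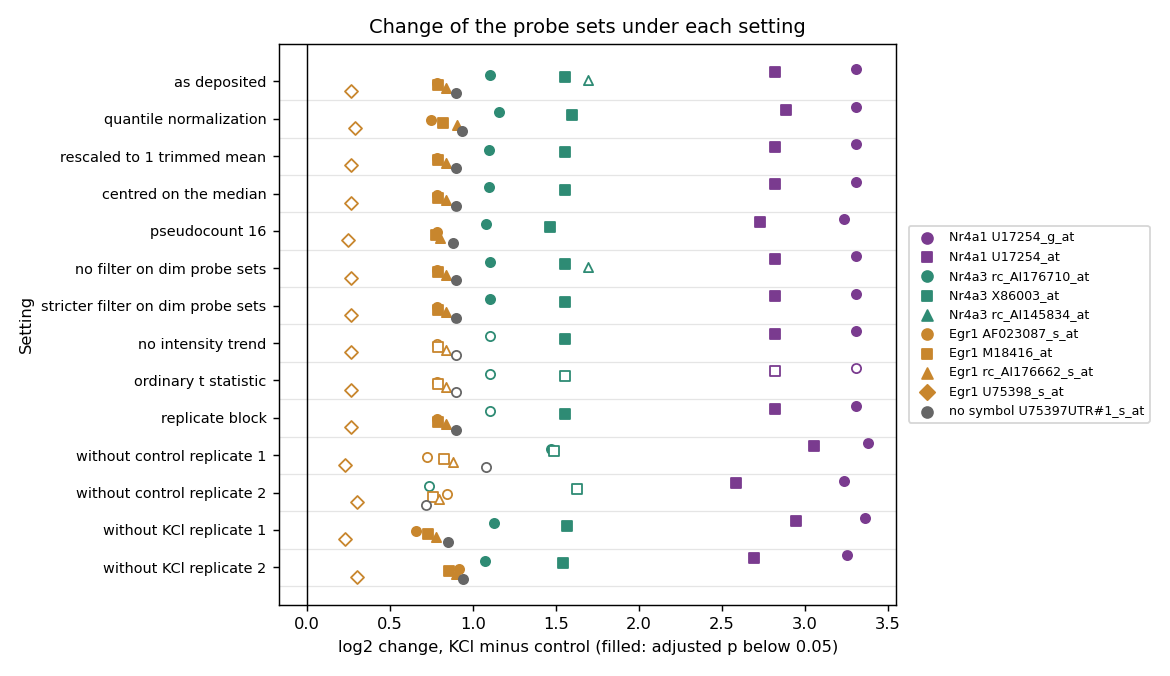
Log2 change (KCl minus control) of each probe set as deposited and under the 13 alternative settings; filled points have an adjusted p below 0.05. All points lie above 0, and both Nr4a1 probe sets are filled in every setting except the ordinary t statistic.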

How the data were processed

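The deposited table holds 1 intensity per probe set, on a linear scale, from 1-colour Affymetrix arrays hybridized with biotin-labelled cRNA made from 5 µg of total RNA, per the labels' protocols. How the authors summarized and scaled them is not given in the sources used here. No value was 0 or below, so log2 was taken without a floor. Of 1322 probe sets, 59 Affymetrix controls were left out, as were the dimmest 25% of the others (316, with means up to 33.3), which left 947. Platform symbols were updated through Entrez identifiers where RefSeq held them (1132 of 1137 probe sets with 1 symbol). KCl was compared with control by limma 3.58.1 in R 4.3.3 (lmFit, and eBayes with an intensity trend), two-sided, with Benjamini-Hochberg adjustment over all genes' 947 probe sets and a threshold of 0.05. The fit was tested on simulated data. The number of arrays limits the precision, and SEs of log2 changes had a median of 0.21.

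Background was read from 19 bacterial and yeast control probe sets that are not hybridization spikes (median 9.05, highest 73.7). Differences between probe sets were taken per array and tested by exact permutation. The genes named are all members, the 3 nearest probe sets by distance for each gene, and, of the lists, genes that passed and up to 4 others. A gene entered a list through its brightest probe set. The members, gene lists and motifs were chosen with earlier results of these data known. Alternatives were other scalings, a pseudocount of 16, no or a stricter filter (50%), other variance models, a replicate block and leaving out each array. Gene means over probe sets, the list genes without each array and 1 further pair of probe sets were added after the values were seen.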

Additional observations from a re-analysis of the deposited data

How the results depend on the processing

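Every log2 change of the member probe sets stayed above 0 in the alternatives run, 118 values in all, of which 25 lost the call. The 118 include 13 values of U75398_s_at and 1 of rc_AI145834_at, tested only without the filter, which had no call to lose. The number of members that rose was 8 with quantile normalization, rescaling, median centring, a pseudocount and both other filters. It was 3 without the intensity trend in limma (both Nr4a1 probe sets and X86003_at). It was 0 with an ordinary t statistic, where 8 of the 9 had an unadjusted p below 0.05. These were not the 8 that rose in limma: U75398_s_at of Egr1 was among them and rc_AI176710_at, the brightest Nr4a3 probe set, was not. Leaving out 1 array gave 2 to 8 rising members, the 8 coming from the fits without a KCl array, whose prior degrees of freedom were infinite. Over the whole array, 52 probe sets rose and 50 fell. These were 18 and 3 without the trend and 0 and 0 with the ordinary t statistic (157 with an unadjusted p below 0.05). With 1 array left out, 10 to 72 rose and 1 to 106 fell, and the falls numbered 32 under quantile normalization and 33 without a filter. U75398_s_at passed in none of the alternatives run. Its adjusted p was 0.29 with the ordinary t statistic, and its limma adjusted p with all arrays ranged from 0.35 to 0.50.

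Same-numbered samples did not deviate together (r = −0.03 across probe sets). This cannot tell whether same-numbered arrays share a culture or day, and the labels do not say. With the replicate block 7 members rose, rc_AI176710_at being lost, and over the array 35 rose and 15 fell. Some differences in log2 change turned sign. AF023087_s_at minus M18416_at was 0.0035 with a pseudocount and ran from −0.10 without control 1 to 0.088 without control 2 (0.057 without KCl 2). AF023087_s_at minus rc_AI176662_s_at ran from −0.15 without control 1 to 0.049 without control 2 (0.016 without KCl 2), and minus U75397UTR#1_s_at from −0.35 without control 1 to 0.13 without control 2. Nr4a3 minus Egr1 was 0.31 with all arrays and ran from −0.11 without control 2 to 0.74 without control 1. rc_AI176710_at minus the dim rc_AI145834_at was −0.60 as deposited and 0.090 with a pseudocount. The pseudocount shrinks changes of dim probe sets by construction, and the cause of the other changes was not tested.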
